A study of Caenorhabditis elegans with 8 samples.

Results

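The 10 genes described here encode the core of the insulin, TOR and AMPK signaling pathways of *Caenorhabditis elegans*. They are *daf-2*, *age-1*, *daf-18*, *pdk-1*, *akt-1*, *akt-2*, *sgk-1*, *aak-2*, *let-363* and *daf-15*, and they were taken by their gene identifiers from the 46928 genes of the deposited count table, whatever their values. The libraries hold RNA of whole worms of the N2 wild type, fed OP50 bacteria. There were 4 UA libraries, from populations grown with 50 μM Urolithin A (UA, a metabolite that gut microbes make from ellagitannins), and 4 control libraries, from untreated populations. Each library is a pool of worms from a separate population. The deposited description has the worms exposed to UA from the L4 larval stage up to day 4 of adulthood, whereas the methods place the harvest on day 1, so the age of the worms is uncertain.

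In worms, insulin-like peptides act on the receptor DAF-2, whose signal runs through the phosphoinositide 3-kinase AGE-1 to the kinases PDK-1, AKT-1, AKT-2 and SGK-1. These kinases hold the transcription factor DAF-16 out of the nucleus, and the lipid phosphatase DAF-18 opposes AGE-1. LET-363 is the TOR kinase and DAF-15 its partner Raptor, which together couple nutrients to growth, while AAK-2 is a catalytic subunit of the energy sensor AMPK. Reduced activity of DAF-2, AGE-1 or LET-363, and raised activity of AAK-2, extend the lifespan of the worm. All 3 pathways are controlled largely by phosphorylation and by the place of the proteins in the cell, which transcript counts do not measure.

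Between 41890058 and 43055719 counts were assigned to genes in each library. Defining markers of the intestine, body wall muscle, neurons, hypodermis, germline and embryo were detected in all 6 lists, and of 7 sperm markers *msp-3* and *ssp-9* had no counts. The summed germline and oocyte markers were 6031 to 6474 TPM in UA and 5935 to 6584 TPM in control, and the neuronal ones 370.0 to 430.5 TPM in UA and 368 to 399 TPM in control (TPM scales counts by gene length and library). The 6 body wall muscle markers summed to 220.9 to 280.8 TPM in UA and 162 to 337 TPM in control, and all 6 had log2 fold changes below 0, with a median of -0.16 and none called. Of 3 sperm markers tested, *spe-11* was called as higher in UA, at 0.409 to 0.784 CPM in UA and 0.0482 to 0.279 CPM in control (log2 fold change 2.001, edgeR's adjusted p = 0.239). The 2 other sperm markers tested had log2 fold changes below 0, down to -0.15. Over all genes tested, 4.12% were called as higher. In whole worms, fewer cells of a type and less RNA per cell cannot be told apart.

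No change in the transcript level of any of the 10 genes was detected between UA and control. A gene was called where it changed by over 1.2-fold at an unadjusted p under 0.05, the thresholds of the methods, and 5.67% of the 13720 genes tested were called with edgeR's quasi-likelihood test, against 0 of the 10 members. With DESeq2 5.63% of all genes were called, and with the replicate number as a block in edgeR 7.97%, again with 0 members. At an unadjusted p under 0.05 alone the members again counted 0, against 7.25% of all genes with edgeR, 7.62% with DESeq2 and 11.4% with the block. At an adjusted p under 0.05 they counted 0 as well, against 0.0948% of all genes, and 0.838% with the block. No member had UA libraries all above or all below the control libraries, which 4.78% of the genes tested had. The lowest adjusted p was 0.899, in *akt-2*. The log2 fold changes of UA over control ran between -0.045 and 0.12, with a median of 0.010, against -0.0030 over all genes tested.

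All 10 genes passed the filter on low counts. Per length, *daf-18* was the most abundant, at 402 ± 7.2 TPM in UA and 411 ± 33.2 TPM in control (SD, n = 4 each), and *akt-1* came next, at 168 ± 4.83 TPM in UA and 165 ± 10.3 TPM in control. The least abundant was *akt-2*, at 9.26 ± 0.849 TPM in UA and 8.58 ± 0.599 TPM in control. The median over all genes tested was 10.9 TPM, so the members reached from near the middle of the transcriptome, *akt-2* at the percentile 47.6, to near its top, *daf-18* at the percentile 97.6. Between these, mean TPM fell in the same order in UA and in control, with *daf-15*, *age-1*, *daf-2*, *let-363*, *aak-2*, *sgk-1* and *pdk-1*. The neighbours *sgk-1* and *pdk-1* did not differ beyond their spread in either condition, with *sgk-1* higher in 2 of 4 libraries of each. The ranges of *daf-2* and *let-363* overlapped in control but not in UA, and *daf-2* was the higher in all 4 libraries of both. Every other pair of neighbours had separate ranges in both conditions. The plot of levels by gene shows this order.

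**Figure D1:**
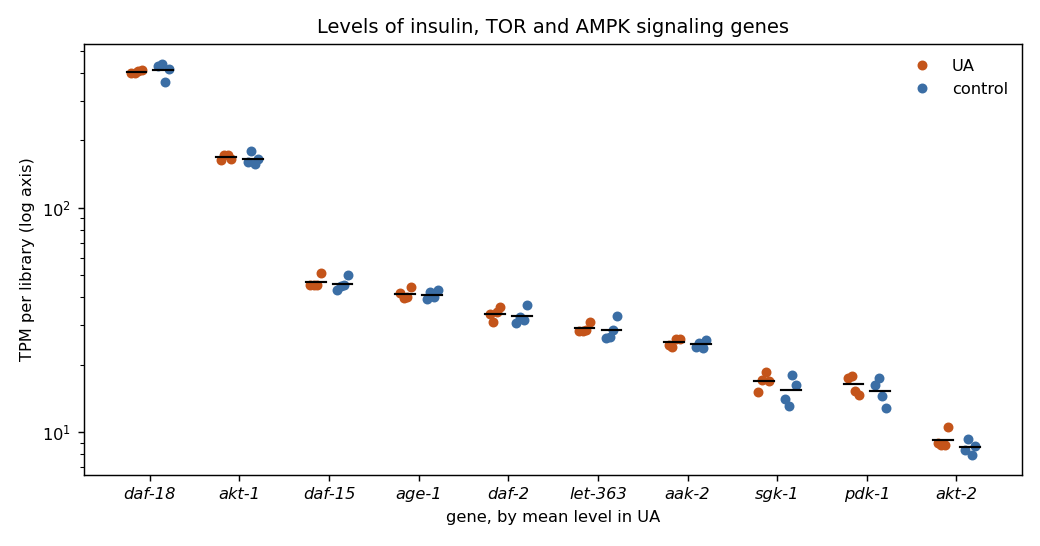
Level of each of the 10 genes in TPM on a log axis, with 1 point per library (UA left and control right for each gene) and a bar at the mean of 4 libraries. Mean levels in UA run from 402 TPM in *daf-18* to 9.26 TPM in *akt-2*, and the ranges of UA and control overlap for every gene.

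The insulin receptor gene *daf-2* (CELE_Y55D5A.5, chromosome III, 2994514 to 3040846 on the reverse strand of WBcel235, 18 exon blocks) had 203, 189, 213 and 224 CPM in the UA libraries, against 189.6, 198, 204 and 227 CPM in the control libraries (CPM, counts scaled to the same normalized library size, in the order of the replicate numbers). The groups overlapped over nearly their whole range, and replicate 4 was the highest library of *daf-2* in both. Its log2 fold change was 0.018 (standard error 0.066), with a 95% interval of -0.13 to 0.17 and an adjusted p of 0.979. The kinase gene *age-1* (CELE_B0334.8, chromosome II, 11519328 to 11527054, reverse strand) had 119.03, 115, 118 and 130.02 CPM in UA, against 115, 120.4, 121 and 125 CPM in control. Its means of 120.3 ± 6.73 CPM in UA and 120.5 ± 4.39 CPM in control (SD, n = 4 each) were nearly equal, and the log2 fold change was -0.0019 (95% interval -0.11 to 0.11, adjusted p = 0.997). The phosphatase gene *daf-18* (CELE_T07A9.6, chromosome IV, 420011 to 425177, reverse strand), which acts against *age-1*, had 958, 973, 1004 and 1027 CPM in UA, against 1058, 1068, 939 and 1023 CPM in control. The UA libraries fell inside the range of the control libraries, whose spread was set by replicate 3 at the low end. The log2 fold change of *daf-18* was -0.045 (95% interval -0.16 to 0.073, adjusted p = 0.914), the lowest of the 10.

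Downstream of the receptor, 4 kinases pass the signal on. *pdk-1* (CELE_H42K12.1, chromosome X, 1321344 to 1327986, forward strand), whose product activates the AKT kinases, had 30.7, 31.7, 27.7 and 26.6 CPM in UA, against 29.2, 30.8, 27.3 and 23.1 CPM in control. The UA library of *pdk-1* was the higher in 4 of 4 replicate numbers, the only member of which this held, but the groups overlapped and the adjusted p was 0.921 (0.640 with the replicate block). *akt-1* (CELE_C12D8.10, chromosome V, 10248905 to 10252845, forward strand) had 269.9, 289, 292 and 280.5 CPM in UA, against 270.4, 299, 276 and 279 CPM in control, a log2 fold change of 0.0077 with the narrowest interval of the 10, from -0.091 to 0.11. Its paralogue *akt-2* (CELE_F28H6.1, chromosome X, 14147700 to 14152070, forward strand) had 15.5, 15.3, 15.6 and 18.7 CPM in UA, against 14.8, 16.24, 14.6 and 15.4 CPM in control. Only UA replicate 4 lay above all control libraries of *akt-2*, and the log2 fold change of 0.093 became 0.020 without it. *sgk-1* (CELE_W10G6.2, chromosome X, 16254843 to 16262122, reverse strand), a kinase that acts with both the insulin and the TOR pathway, had 17.96, 20.5, 22.5 and 20.6 CPM in UA, against 17.1, 15.7, 22.8 and 19.8 CPM in control. It varied the most between libraries, over 0.54 on the log2 scale, and its log2 fold change of 0.12 (95% interval -0.16 to 0.39, adjusted p = 0.908) was the highest of the 10.

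The TOR kinase gene *let-363* (CELE_B0261.2, chromosome I, 5245743 to 5263424, forward strand), with 32 exon blocks the most divided of the 10, had 175, 178, 182 and 199 CPM in UA, against 167, 166, 189 and 209.8 CPM in control. Its log2 fold change was 0.0025 (95% interval -0.17 to 0.17, adjusted p = 0.998). The Raptor gene *daf-15* (CELE_C10C5.6, chromosome IV, 9386208 to 9394979, forward strand) had 193, 195, 199 and 225 CPM in UA, against 189, 194, 207 and 219.8 CPM in control. For both TOR genes the high libraries were those of replicate 4 in both conditions, and the log2 fold change of *daf-15* was 0.0068 (95% interval -0.13 to 0.15, adjusted p = 0.988). The AMPK gene *aak-2* (CELE_T01C8.1, chromosome X, 16796087 to 16803398, forward strand) had 43.1, 42.9, 47.4 and 47.2 CPM in UA, against 43.4, 44.5, 44.6 and 46.5 CPM in control. Its libraries lay within 0.14 on the log2 scale, the smallest range of the 10, and its log2 fold change was 0.013 (95% interval -0.11 to 0.13, adjusted p = 0.981).

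The size of change that these libraries leave room for can be read from the intervals, as shown in the plot of effects. For 7 of the 10 genes the 95% interval lay within a 1.2-fold change in either direction, which held for 35.7% of all genes tested. The 7 were *daf-2*, *age-1*, *daf-18*, *akt-1*, *aak-2*, *let-363* and *daf-15*. For *pdk-1*, *akt-2* and *sgk-1*, the 3 members with the fewest counts, the intervals reached folds of 1.23, 1.23 and 1.31, so that they include a rise of 1.2-fold. The biological coefficient of variation was 0.0575 to 0.143 over the members, with a median of 0.0760 against 0.154 over all genes tested. Neither comparison with all genes was matched for level. All members but *akt-2* had a mean TPM above the median of the genes tested.

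**Figure D2:**
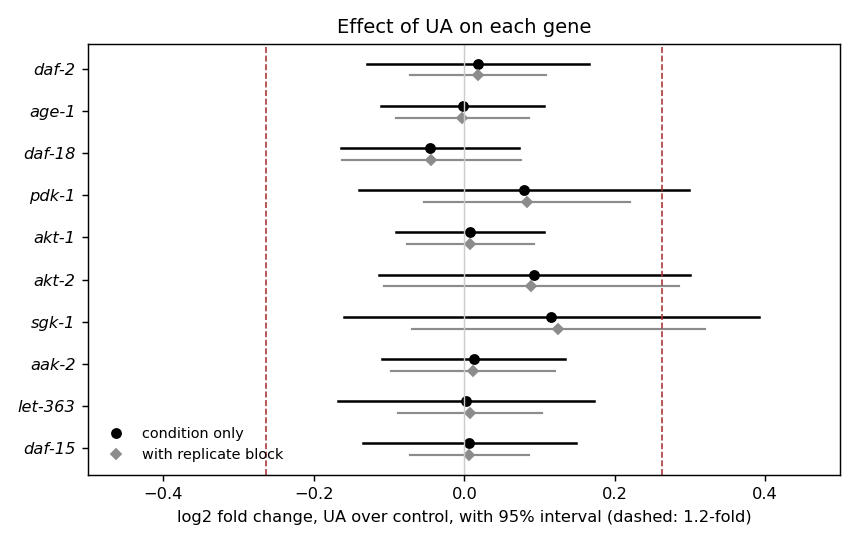
Log2 fold change of UA over control for each gene with its 95% interval, from edgeR's fit of the condition alone (black) and with the replicate number as a block (grey). All intervals cross 0, and 7 of the 10 black ones stay inside the dashed lines at 1.2-fold.

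Replicates 1 and 2 of both conditions stood apart from replicates 3 and 4, a grouping that the labels do not name. The 4 libraries of replicates 3 and 4 lay all above or all below those of replicates 1 and 2 in 5 of the 10 genes, and in 18% of the genes tested. *daf-2*, *let-363*, *daf-15* and *aak-2* were higher in replicates 3 and 4, by 0.15, 0.18, 0.14 and 0.094 in mean log2 CPM, and *pdk-1* was lower, with a difference of -0.23. In size, these differences exceed the fitted log2 fold change of UA in each of these genes. The genes were named because their replicates separated, which favours large differences. The intervals of the UA effect reach up to 0.17 in *daf-2*, 0.15 in *daf-15*, 0.13 in *aak-2* and 0.30 in *pdk-1*. For these genes an effect of UA as large as the replicate difference is therefore not excluded. In *let-363* the interval ends at 0.17, short of the difference. Since the grouping came from the same libraries, no test was made of it, and what the populations of these numbers shared is not given in the sources used here.

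**Figure D3:**
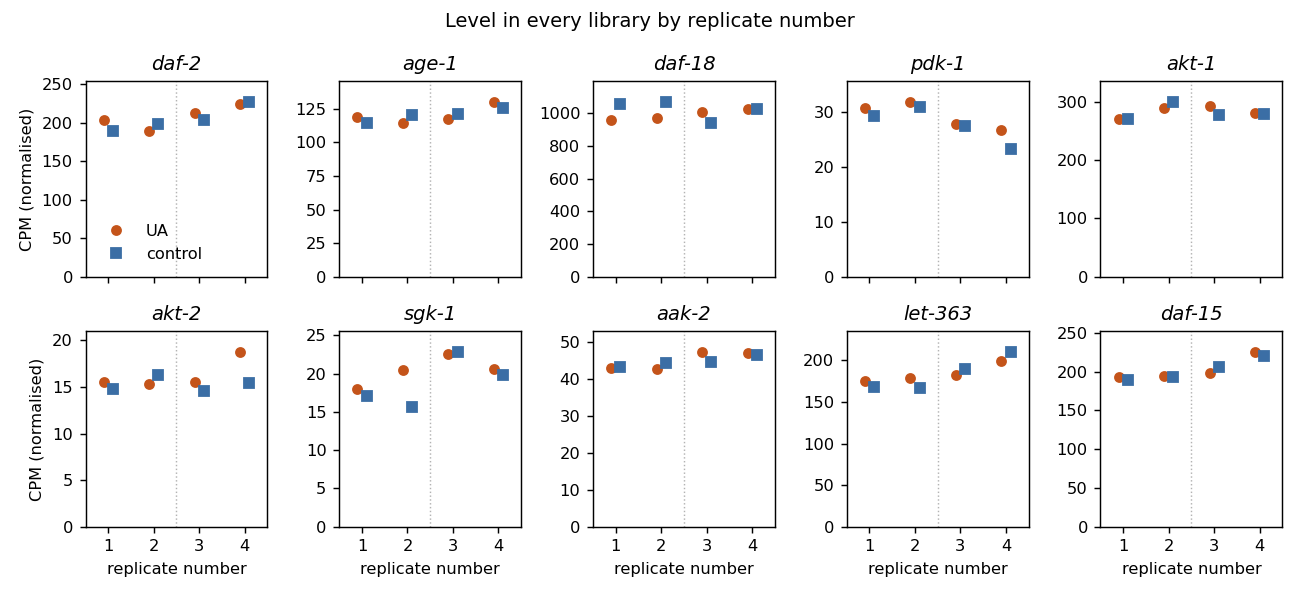
Normalised CPM of each gene in every library by replicate number, with UA as circles and control as squares. Points of *daf-2*, *let-363*, *daf-15* and *aak-2* lie higher on the right of the dotted line, in replicates 3 and 4, and those of *pdk-1* lower. UA and control of the same number lie furthest apart in *sgk-1* replicate 2 and *akt-2* replicate 4, relative to the level of the gene.

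Within each pair of numbers no member was called either, while 11.8% of all genes were called in replicates 1 and 2 alone and 5.55% in replicates 3 and 4 alone. In replicates 1 and 2 alone, at least 11.8% of all genes had an unadjusted p under 0.05, since that share was called. There, 2 members had such a p without reaching 1.2-fold. They were *daf-18*, with a log2 fold change of -0.13 (edgeR's adjusted p = 0.233), and *sgk-1*, with one of 0.24 (edgeR's adjusted p = 0.285). In replicates 3 and 4 alone, the values were 0.048 for *daf-18* and 0.016 for *sgk-1*. The difference between the pairs of numbers had an adjusted p of 0.546 for *daf-18*, the lowest of the 10, and 0.766 for *sgk-1* (edgeR, interaction term). At an unadjusted p under 0.05 this term counted 1 of the 10 members, *daf-18*, against 8.55% of all genes, and at an adjusted p under 0.05 it counted 0 members, against 0.0802% of all genes.

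Since a ratio within a library does not depend on its depth, 4 pairs of genes with related or opposed roles were compared in this way. The kinase *age-1* stood to the phosphatase *daf-18* at a log2 ratio of -3.28 ± 0.0562 in UA and -3.32 ± 0.115 in control (SD, n = 4 each), so that *daf-18* transcripts were 9.70 times as abundant in UA and 10.01 times in control. *akt-1* over *akt-2* was 4.19 ± 0.155 in UA and 4.27 ± 0.0274 in control. The TOR partners *daf-15* and *let-363* had a log2 ratio of 0.687 ± 0.0258 in UA and 0.688 ± 0.0654 in control. The AMPK subunit *aak-2* over *aak-1*, the other catalytic subunit, was -0.470 ± 0.121 in UA and -0.379 ± 0.0597 in control. No difference between the conditions was detected in any of the 4 ratios (two-sided exact permutation test, p = 0.571, 0.400, 0.971 and 0.286 in this order, adjusted p of 0.762, 0.762, 0.971 and 0.762). With 4 libraries in each condition, this test cannot go below 0.0286.

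**Figure D4:**
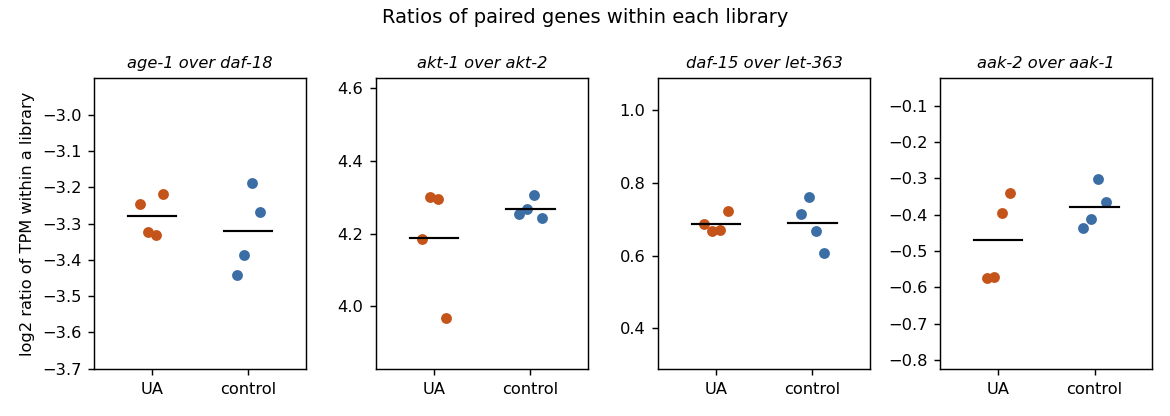
Log2 ratio of TPM within each library for 4 pairs of genes, UA left and control right, with a bar at the mean of 4 libraries. The axes span the same width around each pair's mean, and the points of the conditions overlap in every panel.

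Of 12 insulin pathway partners tested, none was called, among them *daf-16*, the transcription factor at the end of the pathway, with 168, 169, 175 and 169 CPM in UA, against 164, 164, 185 and 182 CPM in control (log2 fold change -0.027, adjusted p = 0.951). The lowest p of this list was that of *dct-1*, a DAF-16 target that encodes the BNIP3 homologue of mitophagy, with 31.3, 33.1, 31.95 and 31.4 CPM in UA, against 27.5, 29.8, 26.8 and 30.4 CPM in control. All 4 UA libraries of *dct-1* lay above the control libraries, but the log2 fold change of 0.16 was under 1.2-fold and the adjusted p was 0.607. The partners *eak-3*, *eak-4* and *sdf-9*, known from a single pair of neuroendocrine cells, had 2, 2 and 4 counts over the UA libraries and 0, 10 and 3 over the control libraries, too few for a test. None of 14 genes of the TOR complexes and their nutrient input was called, though 13 of the 14, all but *sesn-1*, lay below 0, with a median log2 fold change of -0.045. Over all genes tested, 7006 of 13720 lay below 0, and 6527 to 7157 with the other scalings. Of the 10 germline and oocyte markers, 9 lay below 0 as well, with a median of -0.024, and 7 with library totals alone. The split of the 14 was 13 to 1 with each scaling of the libraries tried. *sinh-1*, a subunit of the second TOR complex, had the lowest p of them (log2 fold change -0.074, adjusted p = 0.826), and its UA libraries lay all at or below the lowest control library.

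Among the AMPK subunits, none of 8 was called. *aak-1* had the lowest p, with a log2 fold change of 0.10 and an adjusted p of 0.695. The beta subunit gene *aakb-1*, singled out after its values were seen, had 16.98, 15.6, 16.5 and 15.5 CPM in UA, against 11.9, 11.1, 13.9 and 16.7 CPM in control. Control replicate 4 lay within the UA range, and the log2 fold change was 0.27 (edgeR's adjusted p = 0.707). *aakb-1* was called with the replicate block (log2 fold change 0.29, adjusted p = 0.395), with DESeq2 (adjusted p = 0.568) and without control replicate 4 (log2 fold change 0.40). Its change was 0.52 in replicates 1 and 2 alone (adjusted p = 0.0256) and 0.066 in replicates 3 and 4 alone, and the difference between these had an adjusted p of 0.510. Of 10 genes upstream and downstream of AMPK, none was called, and *mop-25.1*, an adaptor of the AMPK kinase, had the lowest p (log2 fold change 0.12, adjusted p = 0.693). None of 12 TOR outputs was called, with *ife-5*, a cap-binding translation factor, lowest in p (log2 fold change 0.24, adjusted p = 0.693).

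Of the 40 insulin-like peptide genes, the ligands of DAF-2, 18 had enough counts to be tested and 1 was called, where 4.12% of all genes were called as higher. *ins-4* had 1.59, 2.08, 1.63 and 1.14 CPM in UA, against 0.791, 0.546, 0.771 and 1.25 CPM in control, with means of 1.61 ± 0.384 CPM in UA and 0.839 ± 0.295 CPM in control (SD, n = 4 each). It was called as higher in UA by 0.94 on the log2 scale (SE 0.28, adjusted p = 0.405), although UA replicate 4 lay below control replicate 4. It was 1.47 in replicates 1 and 2 alone and 0.45 in replicates 3 and 4 alone, where it was not called. The median of the 18 was 0.043.

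Among the known outputs of DAF-16, 6 genes were called, as the plot of gene lists shows. Of 17 tested genes that DAF-16 raises when insulin signaling is low, 1 was called as higher and 1 as lower, where 4.12% and 1.55% of all genes were. *ctl-1*, a catalase gene, had 13.5, 26.6, 14.4 and 15.001 CPM in UA, against 11.7, 10.8, 11.8 and 11.5 CPM in control, a log2 fold change of 0.60 (adjusted p = 0.458) that became 0.32 without UA replicate 2. *dod-6* had 24.5, 20.7, 51.1 and 39.4 CPM in UA, against 55.2, 65.8, 77.8 and 67.5 CPM in control, or -0.97 on the log2 scale (adjusted p = 0.306, or 0.0240 with the replicate block). Both had separate groups, in opposite directions, where 4.78% of all genes tested had separate groups in either direction. *ctl-2*, the neighbouring catalase gene and named after its values were seen, also had separate groups, with 55.9 to 59.8 CPM in UA and 48.5 to 51.1 CPM in control, but its log2 fold change of 0.21 was under 1.2-fold (adjusted p = 0.199). The standard reporter of DAF-16 activity, the superoxide dismutase gene *sod-3*, was at 0.954 ± 0.229 CPM in UA and 1.03 ± 0.226 CPM in control (SD, n = 4 each, log2 fold change -0.11, adjusted p = 0.960). With the replicate block, *ftn-1*, a ferritin gene, was called as well (-0.73 on the log2 scale, adjusted p = 0.0455). Over the 17, the median log2 fold change was 0.085.

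Of 7 tested genes that DAF-16 lowers, 3 were called as lower and 1 as higher in UA, where 1.55% and 4.12% of all genes were. *dod-24* had 16.7, 23.5, 38.8 and 26.4 CPM in UA, against 75.5, 61.3, 107 and 122 CPM in control, which is -1.80 on the log2 scale (adjusted p = 0.0522, or 0.00181 with the replicate block). *dod-17* had 3.37, 2.77, 2.72 and 2.46 CPM in UA, against 5.63, 4.00, 5.59 and 4.47 CPM in control, or -0.80 on the log2 scale (adjusted p = 0.188, or 0.0554 with the block). *dod-22* was the third that fell, with 4.15 to 7.16 CPM in UA and 24.6 to 44.1 CPM in control, and the only member of these lists with an adjusted p under 0.05 (0.00429). *dod-19*, of the same list, had 243, 234.8, 167 and 177 CPM in UA, against 142.02, 135, 121 and 132 CPM in control, or 0.63 on the log2 scale (adjusted p = 0.127, or 0.00921 with the block). The groups of each of these 4 genes did not overlap, against 4.78% of all genes tested, and 3 of them were lower and 1 higher in UA. With the replicate block, *dod-23* was also called as lower (-0.39 on the log2 scale). *ins-7*, the DAF-16-repressed ligand, was at 2.51 ± 0.383 CPM in UA and 2.59 ± 0.504 CPM in control (SD, n = 4 each). Beside these results, the gut transcription factor gene *elt-2* was the 1 of 6 intestinal markers called, as higher. *elt-2* had 6.91 to 9.87 CPM in UA and 4.46 to 6.55 CPM in control (log2 fold change 0.61, edgeR's adjusted p = 0.343). Of the 6 intestinal markers, 4 lay above 0 and 2 below, with a median log2 fold change of 0.13. The 6 summed to 5470 to 6065 TPM in UA and 4349.8 to 6336 TPM in control. The 6 hypodermal markers summed to 473 to 754 TPM in UA and 545 to 854 TPM in control, and the 4 of them that were tested all had log2 fold changes below 0, with a median of -0.40. Of these, the adult cuticle collagen gene *col-19* was called as lower, at 53.4 to 100.3 CPM in UA and 77.3 to 118 CPM in control (log2 fold change -0.54, adjusted p = 0.558), and with the replicate block *dpy-7*, another cuticle collagen gene, was called as well (-0.46 on the log2 scale, adjusted p = 0.414). The part of these markers in the result was not tested.

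**Figure D5:**
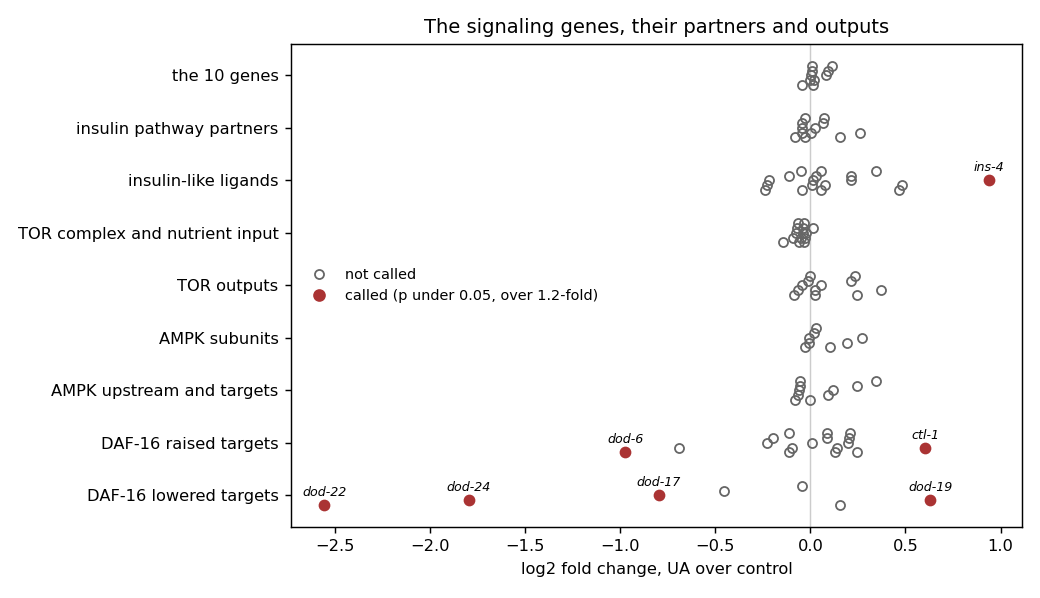
Log2 fold change of UA over control for the 10 genes and for the tested genes of each list, with 1 point per gene and filled points for genes called at an unadjusted p under 0.05 and over 1.2-fold. No filled point lies in the rows of the 10 genes, the insulin partners, the TOR lists or the AMPK lists, and 4 of 7 points of the DAF-16 lowered targets are filled.

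Exons of 5 of the 10 genes overlap an exon of a gene on the opposite strand, by 8 to 192 bases, and none overlaps one on the same strand. The neighbours *B0334.10*, *F21E9.2*, *mec-4* and *col-121* had 6 to 466 counts over all 8 libraries. The other, *rop-1*, with 52376 counts, overlaps *akt-1* by 8 bases. Whether the counting used the strand is not stated, so such reads cannot be told apart. Several of the genes have more than 1 annotated transcript, up to 7 in *daf-2*, and the gene counts pool them.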

How the data were processed

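RNA from 4 UA and 4 control populations was sequenced as stranded mRNA libraries (DNBSEQ). After quality filtering by the authors, HISAT2 placed the reads on WBcel235. The authors describe counts of mapped fragments per RefSeq gene from featureCounts 1.6.2. The deposited columns are labelled as read counts, and *ins-4* and *dod-22* have even counts in every library. Whether a fragment was counted as a whole or as separate reads is therefore uncertain. The deposited values are these counts, not normalized, with the gene length in bases. The authors' strand setting is not given in the sources used here.

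Of 46928 genes, 46925 were matched to a RefSeq symbol. Genes were kept with filterByExpr (13720 genes), scaled with TMM and compared with the quasi-likelihood test of edgeR 4.0.16 (R 4.3.3), with p-values adjusted by Benjamini-Hochberg over all genes. Standard errors were taken from the fold change and the F statistic. DESeq2 1.42.0, the authors' tool in another version, was an alternative. TPM used the deposited gene length, and tests of ratios were exact permutation tests in scipy 1.17.1. The fit was tested on simulated counts whose libraries varied independently. These held no grouping of replicates 1 and 2 against 3 and 4, so the simulation does not cover it. The replicate block treated libraries of the same number as a pair, which the labels do not state. Same-numbered libraries deviated together from their condition mean in 4 of 4 pairs, with correlations of 0.191 to 0.353. Across numbers 1 and 2, and across 3 and 4, the correlations were 0.150 to 0.333. They therefore do not tell a pairing by number from the grouping of replicates 1 and 2 against 3 and 4. The labels call the libraries biological replicates, and the methods describe separate populations. Alternatives were other scalings, no filter, a replicate block, a term for replicates 1 and 2 against 3 and 4, each of these pairs of numbers alone and each library left out.

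All members were named with their values. In each list the called genes were named, or else the gene of lowest p. The members and lists were chosen with earlier results of these data known.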

Additional observations from a re-analysis of the deposited data

Results flagged for a closer look

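For the 10 genes and the 4 ratios in each condition, 28 groups of 4 libraries were put to Dixon's test at the 95% critical value. Chance alone can flag 1 library or more among so many groups. Here, 1 library lay far from the others of its group. It was UA replicate 4 in *akt-2*, at 18.7 CPM against 15.3 to 15.6 CPM in the other UA libraries and 14.6 to 16.24 CPM in control, with a gap of 0.924 of the range of its group on the log2 scale. The log2 ratio of *akt-1* over *akt-2* in this library was 3.97, against 4.19 to 4.30 in the other UA libraries and 4.24 to 4.31 in control. Without it, the log2 fold change of *akt-2* was 0.020 in place of 0.093, and was not called either way.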

How the results depend on the processing

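No member was called in any of the 16 alternatives, and the number of 95% intervals within 1.2-fold stayed between 7 and 9 in the 15 that give intervals. At an unadjusted p under 0.05, 2 members passed in replicates 1 and 2 alone, where at least 11.8% of all genes did. In each other alternative 0 members passed. The sign of small changes moved. *age-1* was 0.0075 with library totals alone, 0.0016 in replicates 1 and 2 and 0.0033 in replicates 3 and 4. *let-363* was -0.0017 with DESeq2, -0.0017 with its size factors in edgeR and -0.069 in replicates 3 and 4, *daf-18* 0.048 and *daf-15* -0.0082 in replicates 3 and 4, and *akt-1* -0.017 and *aak-2* -0.021 in replicates 1 and 2. With 1 library left out, log2 fold changes ran from -0.020 to 0.073 in *daf-2*, -0.040 to 0.021 in *age-1*, -0.011 to 0.039 in *akt-1*, -0.010 to 0.036 in *aak-2*, -0.041 to 0.076 in *let-363* and -0.045 to 0.051 in *daf-15*, and the log2 ratio of *daf-15* over *let-363* from -0.028 to 0.023. With the replicate block, the differences in ratio had sign-flip p values of 0.625, 0.375, 1 and 0.250 in the order given above (the smallest possible is 0.125), and the block changed no call in the pathway and DAF-16 target lists other than those of *aakb-1*, *ftn-1* and *dod-23*.

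Over all genes, 778 were called, 1616 in replicates 1 and 2 alone and 641 to 937 with 1 library left out. At an adjusted p under 0.05, 13 passed, 169 with DESeq2, 219 with replicates 1 and 2 against 3 and 4 as a covariate, 45 without a filter, 115 with the replicate block, 546 in replicates 1 and 2, 26 in replicates 3 and 4, and 5 to 16 with 1 library left out. That covariate is a grouping seen in these same libraries and named by no label. List counts moved for the AMPK subunits (1 with DESeq2, that covariate, library totals, no filter, the replicate block, and replicates 1 and 2, and 0 to 1 with 1 library left out), the genes around AMPK (1 in replicates 1 and 2, 0 to 1 with 1 library left out), TOR outputs (3 in replicates 1 and 2, 0 to 2 with 1 library left out), ligands (0 in replicates 3 and 4) and raised DAF-16 targets (6 in each pair of numbers). These lists hold 8, 10, 12, 18 and 17 tested genes, in this order, and the counts pool both directions. Over all genes, 11.8% were called in replicates 1 and 2 alone and 5.55% in replicates 3 and 4 alone. DESeq2 called 5.63% of all genes and the replicate block 7.97%. That covariate, library totals and no filter called 1151, 792 and 1097 genes. Causes were not tested.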

Other observations

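For the 3 members that varied most between libraries, the gene with the most similar profile was sought among 8067 genes of at least 5 CPM, by the root-mean-square difference between centred log2 CPM over the 8 libraries. It was *trap-2*, a subunit of the translocon-associated complex of the ER, for *sgk-1* (0.0547), *ral-1*, a small GTPase, for *pdk-1* (0.0366) and *pifk-1B* for *akt-2* (0.0395). Over 8 libraries such likeness is a description of these samples alone.

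A few genes around the pathways had higher values in replicates 1 and 2 with UA but not in replicates 3 and 4, and were singled out after their values were seen. *pha-4*, a forkhead factor of the pharynx that TOR is known to restrain, had a log2 fold change of 0.80 in replicates 1 and 2 (edgeR, adjusted p = 0.0212) and -0.022 in replicates 3 and 4. *crtc-1*, a coactivator that AMPK phosphorylates, had 0.48 (edgeR, adjusted p = 0.00995) and 0.038. The adjusted p of the difference was 0.390 for *pha-4* and 0.560 for *crtc-1*, so that neither was shown to differ between the groupings.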
